A study of Mus musculus with 12 samples.

Results

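The cytosolic and mitochondrial heat shock proteins were followed through their transcripts in mouse peritoneal macrophages that had, or had not, been given antibody-coated platelets. Members were chosen by symbol as 10 heat shock genes, Hspa8, Hspa1a, Hspa1b, Hsph1, Hspa4, Dnajb1, Hsp90aa1, Hspb1, Hspd1 and Hspe1, out of 34948 rows that carry a symbol. All 10 were among the 16546 genes with enough counts to test. The study sequenced poly(A) RNA in 12 libraries, 3 in each of 4 groups. KO R300 and KO blank cells came from Mac-Ern1KO mice, in which Ern1, the gene of the endoplasmic reticulum stress sensor IRE1α, is deleted in macrophages. WT R300 and WT blank cells came from Ern1fl/fl mice, which carry the floxed allele that the KO mice share. All mice were labelled male, were 8 weeks old, and were sampled 3 days after intraperitoneal thioglycolate (3% Brewer medium), which draws monocytes into the peritoneum. R300 cells spent 2 h with platelets coated by R300, an antibody to the platelet surface protein CD42. Blank cells carry the treatment label Con, and the labels do not say whether uncoated platelets were added. The Cre line is not given, nor is it said whether animals were pooled.

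Heat shock proteins are chaperones that hold unfolded proteins and help them refold. In the cytosol, HSP70 proteins bind and release short unfolded stretches; J-domain proteins such as DNAJB1 start this cycle by driving ATP hydrolysis, HSP110 proteins such as HSPH1 end it by exchanging the nucleotide, and HSP90 takes over a subset of clients. Small heat shock proteins such as HSPB1 hold unfolded proteins without ATP, and in mitochondria HSPD1 forms a folding chamber that HSPE1 caps. Many of these genes are switched on together by the heat shock factor HSF1, which binds inverted repeats of a short unit, the heat shock element, near their start sites. Macrophages make these proteins at rest, and phagocytosis and inflammatory stimuli are among the conditions known to change some of them.

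Promoter windows of the members are shown because HSF1 is known to act on this family through the heat shock element. RefSeq windows (GRCm38.p6), each of 300 bases with 250 before the start site and 50 after it, matched 8 of the 10 members in 11 windows. Hspa8 and Hsp90aa1 had no window. Matches were sought on both strands to a 3-unit element (GAANNTTCNNGAA or TTCNNGAANNTTC) and to the 2-unit element contained in it (GAANNTTC or TTCNNGAA), so every 3-unit match also counts as 2-unit matches. Here and below, a member counts if any of its windows holds a match, while the shares over all windows are per window. The 3-unit element was present for 3 members, Hsph1, Hspd1 and Hspe1, and in 0.603% of all 32851 RefSeq windows. Hspd1 had 0 such matches in its window 1 and 2 in its window 2. The 2-unit element was present for 6 members (those 3 with Hspa1a, Hspa1b and Hspb1), and in 15.1% of all windows. A match of this kind is a description of the letters and not a measured binding site.

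Window 1 of the 2 windows of Hsph1 is printed whole because Hsph1 is the member whose transcript passed the test described below. It lies at chr5:149636287-149636586 on the minus strand. Capitals mark matches to the heat shock element. There is 1 lone 2-unit match at bases 218 to 225 from the window start, before the RefSeq start site of this window. The 1 3-unit match lies at bases 287 to 299, after that site. In the GENCODE annotation the gene begins at 149636376 on this strand, so the lone match, at 149636362 to 149636369, lies after that start.
Hsph1: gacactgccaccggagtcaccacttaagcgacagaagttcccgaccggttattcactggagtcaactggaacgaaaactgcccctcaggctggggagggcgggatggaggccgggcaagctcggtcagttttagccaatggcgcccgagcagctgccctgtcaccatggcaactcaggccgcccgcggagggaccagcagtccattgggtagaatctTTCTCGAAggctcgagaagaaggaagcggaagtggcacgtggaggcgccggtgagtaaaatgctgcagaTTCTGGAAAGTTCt

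Hspe1 and Hspd1 lie head to head, and the 3-unit matches of both genes are the same bases read on opposite strands. The stretch of the Hspe1 window is chr1:55088034-55088101, plus strand, and its capitals mark 2 overlapping 3-unit matches, from 55088059 to 55088076.
Hspe1: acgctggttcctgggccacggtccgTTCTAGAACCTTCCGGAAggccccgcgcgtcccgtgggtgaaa

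The near-identical Hspa1a and Hspa1b are shown side by side because their counts are hard to separate. The Hspa1a stretch is chr17:34972228-34972285 and the Hspa1b stretch is chr17:34959310-34959367, both on the minus strand, and capitals mark the single 2-unit match of each. These stretches hold the same 58 bases. The whole windows differed at 4 positions, C44T, T47C, T249G and C276T, counted from the window start with the Hspa1a base first.
Hspa1a: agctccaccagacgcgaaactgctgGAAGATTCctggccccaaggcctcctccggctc
Hspa1b: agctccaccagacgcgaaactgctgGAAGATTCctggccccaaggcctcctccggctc

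A CCAAT box (CCAAT or ATTGG) was present for 5 members, Hsph1, Hspa1a, Hspa1b, Dnajb1 and Hspd1, and in 37.4% of all windows. A TATA box spelled TATAAA or TTTATA was found for 0 of the 8 members with a window, against 13.6% of all windows; no match says only that these letters are not in these windows. Hspa4 and Dnajb1 held neither form of the heat shock element.

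Some facts about the libraries bear on everything that follows. Totals ran from 21765600 to 44273700 counts to 6 digits, and levels are given as CPM after TMM normalisation. Although all mice were labelled male, 8 libraries held 143 to 590 CPM of Xist, the noncoding RNA of the inactive X, and the other 4 (KO R300 3, KO blank 3, WT R300 2 and WT blank 3, 1 in each group) held at most 0.0742 CPM. Y-linked transcripts were present in all 12 libraries, at 42.6 to 162 CPM in the 8 with Xist and 205 to 224 CPM in the 4 without. KO R300 1 and 2 were nearly alike (median chi-square per gene 1.53), as were WT R300 1 and 3 (1.37), against 6.14 to 10.1 for the other pairs within a group and 0.455 for sampling alone, so n = 3 in the R300 groups counts libraries, and their SDs may be smaller than the spread between mice. Ern1 levels in libraries labelled KO were no lower than in WT, at 174 to 235 CPM in KO R300 against 138 to 205 CPM in WT R300, and at 116 to 155 CPM in KO blank against 94.1 to 117 CPM in WT blank. Counts over the whole gene do not show whether an exon is missing, so they check neither the deletion nor the labels. Macrophage markers were abundant in every library, with the 11 genes summing to 12637 CPM or more, and T and NK cell markers summed to at most 8.23 CPM. In whole-cell RNA of this kind, fewer cells of a type and less RNA per cell cannot be told apart.

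Among the 10 members, levels per transcript length spanned more than an order of magnitude. Hspa8, the constitutive HSP70 of the cytosol, was the highest in every group, at 409 ± 63.0 CPM per kb (SD, n = 3) in KO R300, 278 ± 18.9 in KO blank, 370 ± 24.9 in WT R300 and 282 ± 23.1 in WT blank. Hsp90aa1, the inducible HSP90, came second in every group, at 109 ± 3.56 CPM per kb in KO R300 and 89.5 ± 6.59 CPM per kb in WT blank. Hspd1 (47.4 to 53.6 CPM per kb as group means), Hspa4 (42.4 to 47.3) and Hspe1 (35.9 to 37.7) followed in that order in all 4 groups, although the libraries of Hspd1 and Hspa4 overlapped in KO R300, KO blank and WT R300, and those of Hspa4 and Hspe1 in KO blank and WT blank. The other 5 members, Hsph1, Dnajb1, Hspb1, Hspa1b and Hspa1a, had group means of 7.75 to 18.5 CPM per kb. Hsph1 had the highest mean of these 5 in both R300 groups, and in KO R300 all its libraries were above all those of the other 4, whereas in WT R300 the highest Hspb1 library (21.5 CPM per kb) exceeded them. In WT blank the libraries of all 5 overlapped, and in KO blank those of Hspa1a lay wholly below those of Hsph1 and Dnajb1. Hspa8 alone made up 39.8% to 53.4% of the summed CPM of the 10 members in a library.

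**Figure D1:**
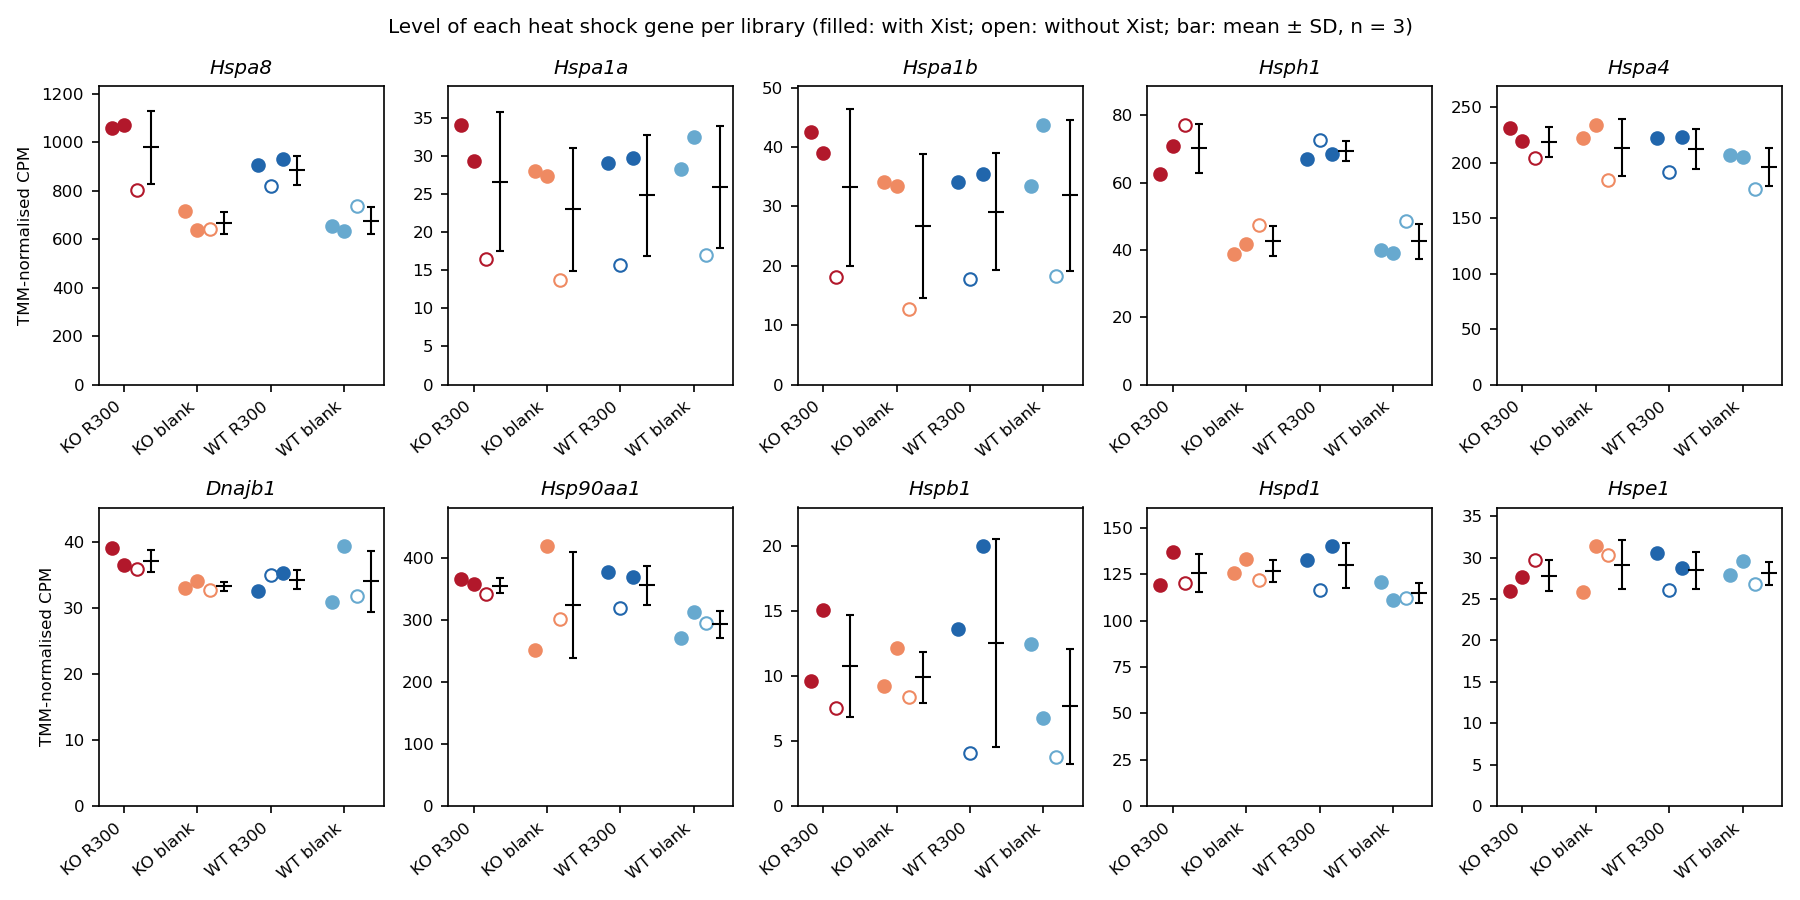
TMM-normalised CPM (vertical axis, linear from 0, a scale of its own for each gene) of the 10 heat shock genes in the 12 libraries, by group. Each point is 1 library, filled where Xist was present and open where it was not, and the bars are the mean ± SD of 3 libraries. For Hsph1 and Hspa8 every R300 library lies above every blank library of its genotype, and for Hspa1a and Hspa1b the 4 open points lie below all the filled ones.

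Hsph1 was higher in R300 than in blank macrophages of both genotypes. Hsph1 (chromosome 5, 149614287 to 149636376 of GRCm38, minus strand), the HSP110 nucleotide exchange factor that also works with HSP70 in pulling apart aggregates, had 62.6, 70.7 and 77.1 CPM in KO R300 libraries 1 to 3, against 38.9, 41.8 and 47.6 CPM in KO blank. WT R300 libraries had 66.9, 72.6 and 68.4 CPM, against 39.97, 39.2 and 48.6 CPM in WT blank. All 6 R300 libraries were higher than all 6 blank libraries, with the lowest R300 value at 62.6 CPM and the highest blank value at 48.6 CPM. The means were 70.2 ± 7.29 CPM in KO R300 against 42.7 ± 4.41 CPM in KO blank, and 69.3 ± 2.92 CPM in WT R300 against 42.6 ± 5.25 CPM in WT blank (SD, n = 3 each). In KO cells the change was 1.64-fold (log2 0.71, SE 0.12, 95% interval 0.46 to 0.97), with an adjusted p of 0.0180 by edgeR's quasi-likelihood test over all genes. In WT cells it was 1.63-fold (log2 0.70, SE 0.12, 95% interval 0.45 to 0.96), with an adjusted p of 0.0250.

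Hsph1 was the 1 member of 10 that passed the test in each genotype. Of all genes tested, 0.834% passed in KO cells in either direction (0.695% higher, 0.139% lower) and 0.623% in WT cells (0.55% higher, 0.0725% lower). Before adjustment, p was under 0.05 for 2 members in each genotype, Hsph1 and Hspa8, against 8.78% of all genes in KO and 8.72% in WT. Within the libraries split by Xist, the log2 difference of R300 from blank for Hsph1 was 0.70 in KO and 0.58 in WT between the libraries without Xist (1 against 1), and 0.72 in KO and 0.77 in WT between those with it (2 against 2). With 1 library of each near-alike pair left out, the log2 change was 0.71 in KO and 0.71 in WT, but adjusted p was 0.178 in KO and 0.226 in WT, and both calls were also lost when only the groups compared entered the fit (0.129 in KO, 0.0859 in WT). Over the 10 alternatives other than leaving out a library, adjusted p ran from 4.26e-05 to 0.178 in KO and from 8.08e-05 to 0.226 in WT. The KO call was lost without KO blank 1, KO blank 2 or KO R300 2, and the WT call without WT blank 1, WT blank 2, any 1 of the WT R300 libraries, or KO R300 2, with log2 changes of 0.63 to 0.79 in KO and 0.65 to 0.81 in WT over all 12 such fits.

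Hspa8 was higher in every R300 library than in every blank library of its genotype but did not pass the test. Hspa8 (chromosome 9, 40800984 to 40810087, plus strand) refolds proteins and strips clathrin from vesicles in unstressed cells. Its levels were 1060.5, 1072 and 805 CPM in KO R300 libraries 1 to 3, against 719, 638 and 643 CPM in KO blank. In WT R300 they were 906, 818 and 932 CPM, against 656, 634 and 738 CPM in WT blank. KO R300 3 was the lowest of the R300 libraries, and WT blank 3 the highest of the blank ones; both lack Xist. The log2 change was 0.55 in KO (SE 0.13, 1.47-fold, 95% interval 0.27 to 0.84, adjusted p = 0.0942) and 0.39 in WT (SE 0.13, 1.31-fold, 95% interval 0.11 to 0.67, adjusted p = 0.339). Within the libraries without Xist the log2 difference was 0.32 in KO and 0.15 in WT, and within those with Xist 0.65 in KO and 0.51 in WT. The KO change passed when Xist status entered as a batch (adjusted p = 0.0307), when the 4 libraries lacking Xist were dropped (0.0356), with DESeq2 (0.00704) and without KO R300 3 (0.0300); over the 10 alternatives adjusted p ran from 0.00704 to 0.597. About 6.09% of the exonic bases of Hspa8 are shared with 3 small nucleolar RNA genes, Snord14c, Snord14d and Snord14e.

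The other HSP70 genes did not pass. Hspa1a and Hspa1b, the stress-inducible HSP70 pair, lie beside each other on chromosome 17 (34969190 to 34972156 and 34956436 to 34959238, both on the minus strand). Hspa1a had 34.0, 29.3 and 16.4 CPM in KO R300, against 28.0, 27.3 and 13.7 CPM in KO blank. Hspa1a was at 29.1, 15.6 and 29.7 CPM in WT R300, against 28.2, 32.4 and 16.9 CPM in WT blank. R300 and blank libraries overlapped in both genotypes, and in each group 1 library stood far below the other 2. Hspa1b had 42.6, 38.9 and 18.1 CPM in KO R300, against 34.1, 33.5 and 12.7 CPM in KO blank. Hspa1b was at 34.1, 17.8 and 35.4 CPM in WT R300, against 33.5, 43.7 and 18.4 CPM in WT blank. The pattern was that of Hspa1a, with the same library low in each group. For Hspa1a the log2 change with R300 was 0.21 in KO (95% interval -0.60 to 1.02) and -0.06 in WT (-0.87 to 0.75), and for Hspa1b it was 0.31 in KO (-0.69 to 1.31) and -0.13 in WT (-1.13 to 0.87). These intervals hold changes as large as that of Hsph1. With Xist status as a batch in the fit the errors were smaller and neither gene passed. The log2 change of Hspa1a was then 0.22 in KO (SE 0.09, unadjusted p = 0.0302, adjusted p = 0.268 by edgeR's quasi-likelihood test) and -0.07 in WT (SE 0.09, adjusted p = 0.785). For Hspa1b it was 0.34 in KO (SE 0.12, unadjusted p = 0.0137, adjusted p = 0.182) and -0.12 in WT (SE 0.12, adjusted p = 0.712).

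The low library of each group was the one without Xist. Hspa1a ran from 13.7 to 16.9 CPM (median 16.0) in the 4 libraries without Xist, against 27.3 to 34.0 CPM (median 29.2) in the 8 with it. Hspa1b ran from 12.7 to 18.4 CPM (median 17.9) without Xist, against 33.5 to 43.7 CPM (median 34.8) with it. Hspa4 was the third member whose libraries did not overlap between these sets, at 176 to 204 CPM without Xist against 205 to 234 CPM with it. Of all genes tested, 5.44% were lower in all 4 libraries without Xist and 7.55% were higher in all 4. These sets were defined from the data and are not groups of the study, so the values are a description with no test, and the part of any difference between mice in them was not tested. Within the sets, the log2 difference of R300 from blank for Hspa1b was 0.50 in KO and -0.05 in WT without Xist (1 against 1), and 0.27 in KO and -0.14 in WT with it (2 against 2).

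Counts of Hspa1a and Hspa1b cannot be fully separated. Their coding sequences were 99.4% identical, and 47.1% of the 100-base words of the Hspa1a transcript also occur in that of Hspa1b, while their coding identity with Hspa8 was 74.1% and 74.3% and they shared 0 such words with it. How reads that fit both genes were counted is not given in the sources used here. The ratio of Hspa1b to Hspa1a counts ran from 0.930 to 1.35, and the sum of the pair from 26.5 CPM in KO blank 3 to 76.6 CPM in KO R300 1. Of the exonic bases of Hspa1a, 19.0% overlap Gm20481 on the opposite strand, and the library kit did not mark the strand.

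**Figure D2:**
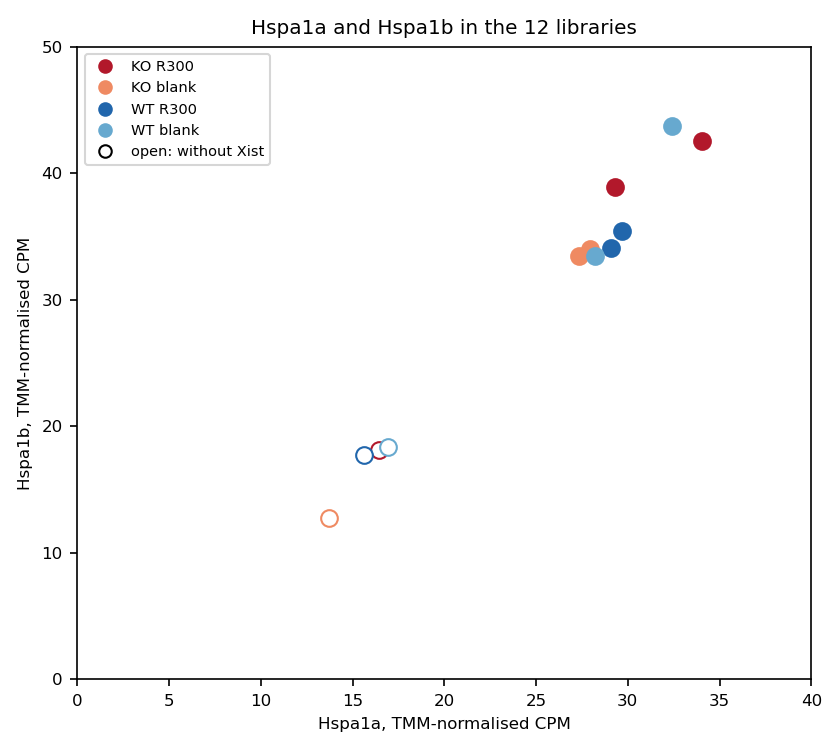
TMM-normalised CPM of Hspa1a (horizontal axis) and Hspa1b (vertical axis), both linear from 0, with 1 point for each of the 12 libraries, coloured by group and open where Xist was absent. The 4 open points lie at 13.7 to 16.9 CPM of Hspa1a and 12.7 to 18.4 CPM of Hspa1b, apart from the 8 filled ones. Within each set, KO R300 points lie above KO blank points for both genes.

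Hspa4, the HSP110 relative of Hsph1, did not pass in either genotype. It had 231, 219.9 and 204 CPM in KO R300, against 222, 234 and 184 CPM in KO blank. In WT R300 it had 222, 192 and 223 CPM, against 207, 205 and 176 CPM in WT blank. R300 and blank libraries overlapped in both genotypes, and the log2 change was 0.03 in KO (95% interval -0.22 to 0.29) and 0.12 in WT (-0.14 to 0.37). The upper ends of these intervals lie below the lower ends for Hsph1 in each genotype. The ratio of Hsph1 to Hspa4 counts was 0.271 to 0.378 in KO R300, against 0.175 to 0.258 in KO blank, and 0.302 to 0.378 in WT R300, against 0.191 to 0.276 in WT blank, without overlap in either genotype. The coding sequences of Hspa4 and Hsph1 were 64.6% identical and shared 0 words of 100 bases. Hspa4 lies on chromosome 11 at 53259814 to 53300457, minus strand.

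Among the partners of HSP70, Dnajb1 and Hsp90aa1 each separated R300 from blank in 1 genotype, without passing the test. Dnajb1 (chromosome 8, 83608193 to 83612653, plus strand), the heat-inducible J-domain partner, had 39.1, 36.5 and 35.9 CPM in KO R300, against 33.0, 34.1 and 32.8 CPM in KO blank. WT R300 libraries had 32.6, 35.0 and 35.4 CPM, against 30.9, 39.3 and 31.8 CPM in WT blank, where 1 blank library exceeded all WT R300 libraries. The log2 change was 0.16 in KO (SE 0.10, adjusted p = 0.785) and 0.01 in WT (SE 0.10, adjusted p = 0.994). Hsp90aa1 (chromosome 12, 110690605 to 110702728, minus strand) had 366, 359 and 343 CPM in KO R300, against 252, 419 and 303 CPM in KO blank. Hsp90aa1 was at 379, 321 and 370.2 CPM in WT R300, against 271, 314 and 296 CPM in WT blank. KO blank 2 was the highest of all 12 libraries and KO blank 1 the lowest, while in WT all R300 libraries were higher than all blank ones. Its log2 change was 0.13 in KO (SE 0.16, adjusted p = 0.953) and 0.28 in WT (SE 0.16, adjusted p = 0.706).

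In all, 3 of 10 members had R300 libraries that lay wholly above blank in each genotype: Hsph1, Hspa8 and Dnajb1 in KO, and Hsph1, Hspa8 and Hsp90aa1 in WT. Of all genes tested, 6.64% did so in KO cells and 6.74% in WT cells. Wholly below blank lay 0 members in either genotype, against 5.68% of all genes in KO and 6.09% in WT. The log2 change was above 0 for 8 of 10 members in each genotype, with a median of 0.15 in both, against a median of -0.00 over all genes tested in each. The KO and WT comparisons used different blank libraries, but the 4 groups shared 1 estimate of the spread.

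**Figure D3:**
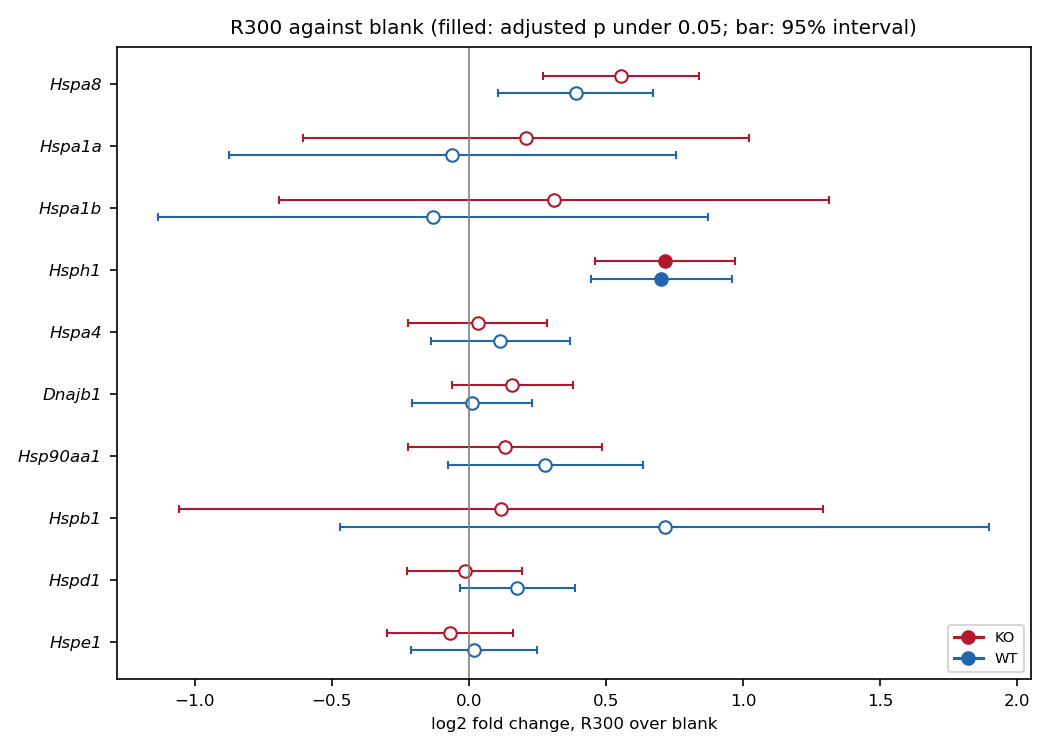
Log2 fold change of R300 over blank (horizontal axis) for the 10 heat shock genes in KO (red, upper) and WT (blue, lower) macrophages, with the 95% interval of the edgeR fit (n = 3 libraries a group). Filled points passed an adjusted p of 0.05. Hsph1 is the only filled gene, at 0.71 in KO and 0.70 in WT; the intervals of Hspa8 lie above 0 and those of the other genes cross it.

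The small heat shock protein gene Hspb1 varied most between libraries. Hspb1 (chromosome 5, 135887919 to 135889563, plus strand), which holds unfolded proteins and binds actin filaments, had 9.66, 15.1 and 7.53 CPM in KO R300, against 9.21, 12.1 and 8.41 CPM in KO blank. In WT R300 it had 13.6, 4.05 and 19.99 CPM, against 12.5, 6.74 and 3.78 CPM in WT blank. R300 and blank overlapped in both genotypes, with a log2 change of 0.12 in KO (95% interval -1.06 to 1.29) and 0.71 in WT (-0.47 to 1.90). The WT value was of the same size as that of Hsph1 but had an SE of 0.54. It moved to 0.21 with 1 library of each near-alike pair left out. In raw counts Hspb1 had 102 to 660 per library, the fewest of the 10 members. Mesothelial and fibroblast markers also varied widely, with the 10 genes summing to 361 to 835 CPM in KO R300, 362 to 467 CPM in KO blank, 195 to 1424 CPM in WT R300 and 151 to 666 CPM in WT blank, none of them at 0 in any library; their part in the Hspb1 values was not tested.

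The mitochondrial pair did not pass in either genotype. Hspd1 and Hspe1, the chaperonin and its lid, lie head to head on chromosome 1 (55077835 to 55088243 on the minus strand and 55088132 to 55091307 on the plus strand) and share 112 exonic bases on opposite strands, 4.24% of those of Hspd1 and 7.60% of those of Hspe1. Hspd1 had 119, 137 and 121 CPM in KO R300, against 126, 133 and 122 CPM in KO blank. Hspd1 was at 133, 117 and 140.1 CPM in WT R300, against 121, 111 and 112 CPM in WT blank. Hspe1 stayed between 25.8 and 31.4 CPM in all 12 libraries. The log2 change of Hspd1 was -0.02 in KO (95% interval -0.22 to 0.19) and 0.18 in WT (-0.03 to 0.39), and that of Hspe1 was -0.07 in KO (-0.30 to 0.16) and 0.02 in WT (-0.21 to 0.25). For Hspe1 these intervals leave no room for a change as large as that fitted for Hsph1 in either genotype, and likewise for Hspd1. The ratio of Hspd1 to Hspe1 counts ran from 3.76 to 4.96 over the 12 libraries.

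The members also differed in their spread over the 12 libraries. The root mean square deviation of log2 CPM from a gene's own mean was 0.09 for Hspe1, 0.11 for Hspd1, 0.11 for Dnajb1 and 0.13 for Hspa4, which placed these 4 among the least variable 14.7% of tested genes. It was 0.21 for Hsp90aa1, 0.27 for Hspa8, 0.37 for Hsph1, 0.45 for Hspa1a, 0.57 for Hspa1b and 0.69 for Hspb1. Hsph1 ranked at the 59.1 percentile of tested genes and Hspb1 at the 85.8 percentile. The closest member profiles, each centred on its own mean, were Hspa4 and Hspd1 (root mean square difference 0.10 in log2 CPM), Hspd1 and Hspe1 (0.12), Hspa4 and Dnajb1 (0.13), and Hspa1a and Hspa1b (0.14). Of the other 9 members, Hspa8 was the nearest to Hsph1, at 0.23.

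Outside the family, the 3 tested genes whose centred profile over the 12 libraries lay nearest to Hsph1 were Ugdh, an enzyme that makes UDP-glucuronate (0.09), Tpd52, a vesicle trafficking protein (0.11), and Gde1, a glycerophosphodiester phosphodiesterase (0.12). Ugdh had 140.4, 154 and 157 CPM in KO R300, against 78.8, 80.9 and 112 CPM in KO blank. Ugdh was at 149.9, 158 and 155 CPM in WT R300, against 79.9, 79.4 and 113 CPM in WT blank, so its libraries did not overlap either. Its log2 change was 0.73 in KO (SE 0.16, adjusted p = 0.0770) and 0.76 in WT (SE 0.16, adjusted p = 0.0835), which did not pass. Nearest to Hspa1a were Jag1, a Notch ligand (0.13), Prdx5, a peroxiredoxin (0.14), and C3, the central complement component (0.17). Nearest to Hspa1b were Jag1 (0.18), Pdlim7, an actin-associated adaptor (0.18), and Tlr2, a receptor for bacterial lipoproteins (0.21). Jag1 had 99.4 to 115 CPM in the 4 libraries without Xist, against 163 to 243 CPM in the 8 with it, the same split as in the Hspa1 pair. Ugdh, Jag1 and the others were picked for likeness over these same 12 libraries, so shared patterns follow from the choice.

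No member differed past the test between libraries labelled KO and WT. In R300 cells the log2 difference of KO from WT ran from -0.22 (Hspb1) to 0.19 (Hspa1b), and in blank cells from -0.25 (Hspa1b) to 0.37 (Hspb1). For Hsph1 it was 0.02 in R300 cells (95% interval -0.24 to 0.27) and 0.01 in blank cells (-0.25 to 0.26). For Hspa8 it was 0.15 in R300 cells (-0.14 to 0.43) and -0.02 in blank cells (-0.30 to 0.26). Within the libraries without Xist (1 against 1) the Hspa8 difference was -0.02 in R300 cells and -0.20 in blank cells, and within those with it (2 against 2) 0.21 in R300 cells and 0.07 in blank cells. Dnajb1 was higher in all KO R300 than in all WT R300 libraries (log2 0.12, SE 0.10), as were 4.03% of all genes, and Hspd1 was higher in all KO blank than in all WT blank libraries (log2 0.14, SE 0.10), as were 1.74% of all genes. Wholly lower in KO were 0 members in either state, against 3.87% of all genes in R300 cells and 1.96% in blank cells. By edgeR's quasi-likelihood test 0 of 10 members and 0% of all genes passed in R300 cells and in blank cells, where 324 genes (1.96%) and 181 genes (1.09%) had an unadjusted p under 0.05, 0 members among them. DESeq2 called 12 genes in R300 cells and 2 in blank cells, with 0 members among them. Macrophage markers summed to 14152 to 16970 CPM in KO R300 against 20316 to 21045 CPM in WT R300, and to 12637 to 13702 CPM in KO blank against 18725 to 20698 CPM in WT blank. Lyz2 made up this gap, at 7090 ± 186 CPM in KO R300 against 12525 ± 298 CPM in WT R300. Among blank libraries it was at 6718 ± 632 CPM in KO against 13000 ± 465 CPM in WT (SD, n = 3). The sums of the other 10 macrophage markers overlapped between genotypes, at 7264 to 9716 CPM in KO R300 against 7587 to 8381 CPM in WT R300, and among blank libraries at 6119 to 6579 CPM in KO against 6092 to 7176 CPM in WT. Y-linked transcripts in the libraries with Xist ran from 42.6 to 71.6 CPM in KO and from 69.5 to 162 CPM in WT, so genotype and the mix of mice in these libraries cannot be told apart.

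Whether the response to platelets differed between genotypes was tested as an interaction (the R300 change in KO minus that in WT). For Hsph1 the difference was 0.01 in log2 units (SE 0.16, 95% interval -0.35 to 0.37), and for Hspa8 it was 0.17 (SE 0.18, -0.23 to 0.56). The widest was -0.60 for Hspb1 (SE 0.76, -2.26 to 1.07). No member passed (0 of 10), and of all genes tested 0% passed with edgeR, where 95 genes (0.574%) had an unadjusted p under 0.05, 0 members among them; DESeq2 called 0 genes. A p that misses the threshold does not show that the genotypes respond alike, and for Hsph1 the interval holds differences of up to 0.37.

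**Figure D4:**
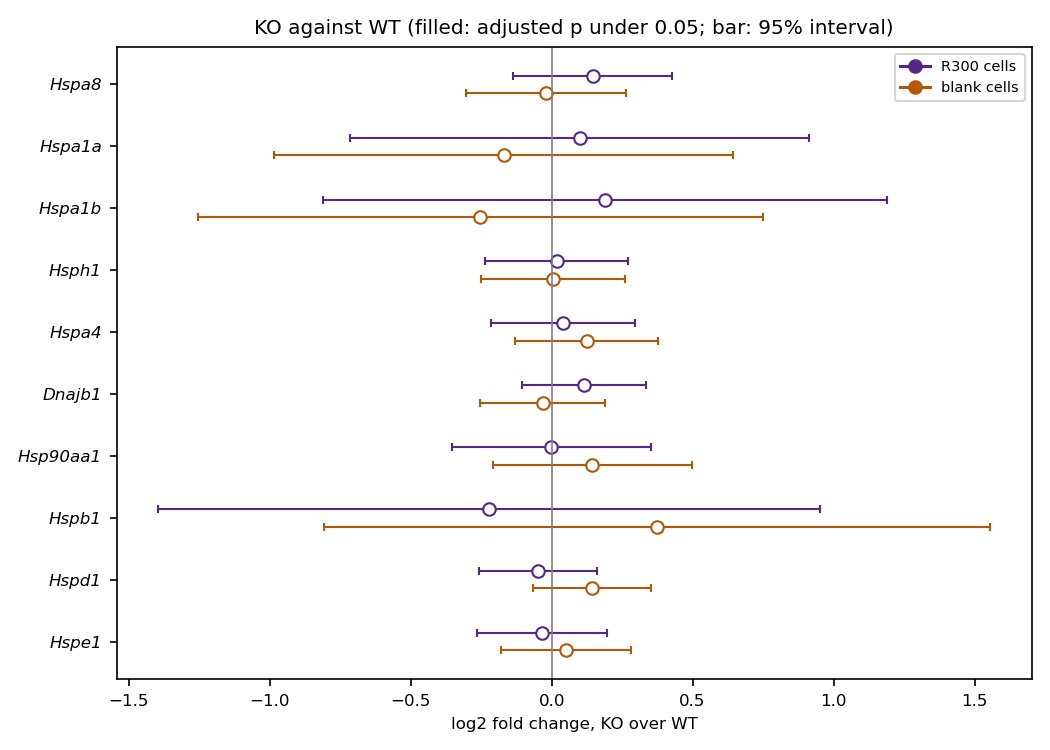
Log2 fold change of KO over WT (horizontal axis) for the 10 heat shock genes in R300 cells (purple, upper) and blank cells (orange, lower), with the 95% interval of the edgeR fit (n = 3 libraries a group). No point is filled, and every interval crosses 0.

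In the fit without a batch, calls in the wider chaperone network were near the share over all genes. The network was taken as 105 genes in 8 lists. They were heat shock factors, other HSP70 and HSP110 proteins, HSP70 cochaperones, HSP90 and its cochaperones, and other small heat shock proteins. The rest were cytosolic chaperonin with prefoldin, other mitochondrial chaperones and proteases, and endoplasmic reticulum chaperones. The prefoldin genes were Pfdn1, Pfdn2, Pfdn4, Pfdn5, Pfdn6 and Vbp1. Of the 105 genes, 102 were tested. With R300, 1 rose and 0 fell in KO cells, where 0.695% of all genes rose and 0.139% fell, and 0 rose and 0 fell in WT cells, where 0.55% of all genes rose and 0.0725% fell. The log2 change was above 0 for 58 of 102 in each genotype, with a median of 0.03 in KO and 0.04 in WT. Of all genes tested, 49.3% had a log2 change above 0 in KO and 49.1% in WT. By list, the log2 change was above 0 for 6 of 6 other HSP70 and HSP110 genes in both genotypes (median 0.49 in KO, 0.27 in WT). These changes ran from 0.12 to 0.97 in KO and from 0.00669 to 1.70 in WT. Among these genes, Hspa1l, Hspa12a and Hspa12b had low levels, with group means of 0.378 to 1.30 CPM. The log2 change was above 0 for 16 of 24 HSP70 cochaperones in KO and 13 in WT, and 10 of 19 genes of HSP90 and its cochaperones in KO and 9 in WT. The log2 change was above 0 for 6 of 14 chaperonin and prefoldin genes in KO and 7 in WT. It was above 0 for 5 of 15 mitochondrial genes in KO and 6 in WT, and 10 of 14 endoplasmic reticulum chaperones in KO and 11 in WT. For the heat shock factors and their regulators it was above 0 for 1 of 4 in KO and 3 in WT, and for the other small heat shock proteins for 4 of 6 in KO and 3 in WT. The gene called was Unc45a, an HSP90 cochaperone known for folding myosin, at 43.1 ± 4.14 CPM in KO R300 against 30.2 ± 2.04 CPM in KO blank (SD, n = 3; log2 0.51, SE 0.09, adjusted p = 0.0350). In WT R300 it was 43.3 ± 2.13 CPM, against 32.8 ± 1.49 CPM in WT blank (log2 0.40, SE 0.09), with an adjusted p of 0.121 that missed the threshold.

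Of the other HSP70 genes, Hspa2 had the lowest p in both genotypes, at 10.5 ± 1.78 CPM in KO R300 against 5.35 ± 1.40 CPM in KO blank (1.96-fold, adjusted p = 0.0768) and 9.91 ± 1.12 CPM in WT R300 against 5.22 ± 0.65 CPM in WT blank (1.90-fold, adjusted p = 0.115). Among the cochaperones this was Dnajb2, a J-domain protein that directs clients to the proteasome, at 24.5 ± 4.21 CPM in KO R300 against 14.4 ± 0.93 CPM in KO blank (1.70-fold, adjusted p = 0.0572) and 23.7 ± 2.31 CPM in WT R300 against 14.5 ± 2.59 CPM in WT blank (1.63-fold, adjusted p = 0.100). Hsf2 had the lowest p of the 4 tested genes of the heat shock factors and their regulators, with a log2 change of -0.07 in KO and -0.09 in WT (adjusted p = 0.973 in KO, 0.915 in WT). The transcript of Hsf1 itself was 31.6 ± 2.11 CPM in KO R300, 33.1 ± 5.23 CPM in KO blank, 32.0 ± 2.44 CPM in WT R300 and 31.2 ± 3.74 CPM in WT blank. In the chaperonin and prefoldin list the lowest p belonged to Tcp1 in KO (log2 -0.16) and Cct3 in WT (0.12). In the mitochondrial list the lowest p belonged to Spg7 (0.15 in KO, 0.13 in WT). For the endoplasmic reticulum list it belonged to Creld2 in KO (0.21) and Dnajb11 in WT (0.15), and none of these genes passed. Among the other small heat shock proteins Hspb7 had it in KO (log2 -0.24) and Cryaa in WT (2.11, with 1.73 ± 0.93 CPM in WT R300 against 0.41 ± 0.35 CPM in WT blank), and neither passed.

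With Xist status as a batch in the fit, more genes passed with R300: 450 in KO cells (2.04% of all genes higher, 0.677% lower) and 347 in WT cells (1.66% higher, 0.435% lower). Members that rose were then Hsph1 (adjusted p = 0.000529) and Hspa8 (0.0307) in KO and Hsph1 (0.000783) in WT. From the 8 lists, Hspa2, Hspa4l, Dnaja1, Dnajb2 and Unc45a rose in KO, and Hspa2, Dnaja1, Dnajb2 and Cryaa in WT. Of the other HSP70 and HSP110 genes this was 2 of 6 in KO and 1 in WT, and of the HSP70 cochaperones 2 of 24 in each. It was 1 of 19 genes of HSP90 and its cochaperones in KO and 0 in WT. Of the other small heat shock proteins it was 0 of 6 in KO and 1 in WT. Dnaja1, a J-domain partner of HSP70 in the cytosol, had a log2 change of 0.28 in both genotypes in this fit (SE 0.06; adjusted p = 0.0283 in KO and 0.0342 in WT). Between KO and WT this fit called 0 members, 0 genes in R300 cells and 1 gene (0.00604%) in blank cells.

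**Figure D5:**
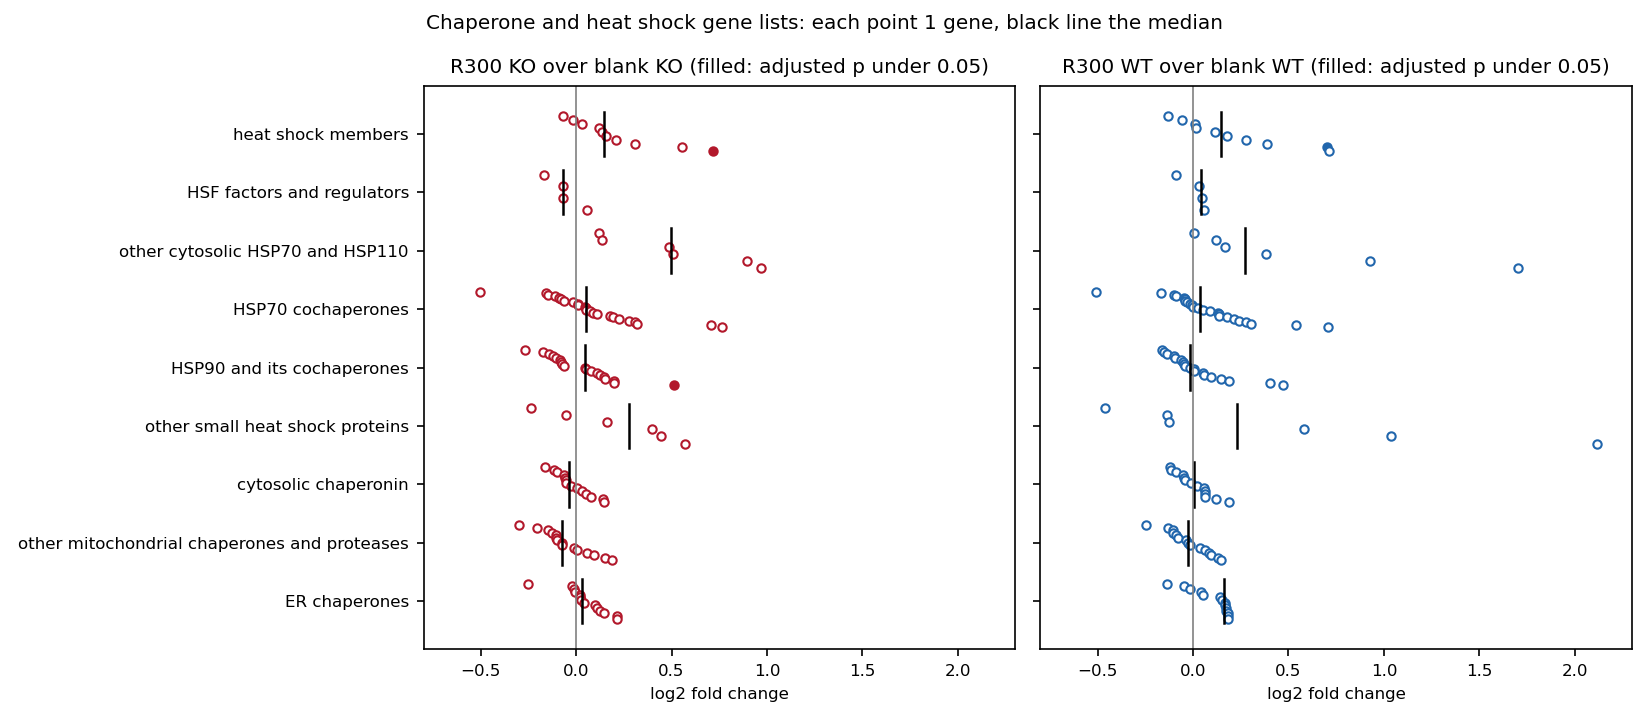
Log2 fold change of R300 over blank (horizontal axis) in KO (left) and WT (right) macrophages for the 10 heat shock genes and the 8 chaperone lists (rows). Each point is 1 tested gene, filled where adjusted p was under 0.05, and the black line is the list's median. The cytosolic chaperonin row also holds the prefoldin genes. Hsph1 in both genotypes and Unc45a in KO are the filled points, and the medians of the chaperonin, mitochondrial and endoplasmic reticulum lists lie within 0.16 of 0.

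Markers of other cells were also compared between R300 and blank libraries. B cell markers had a log2 change with R300 below 0 for 10 of 10 genes in both genotypes. They summed to 118 to 141 CPM in KO R300 against 154 to 303 CPM in KO blank. In WT R300 they summed to 91.4 to 109.6 CPM, against 93.2 to 328 CPM in WT blank. The sum was 303 CPM in KO blank 2, against 154 and 155 CPM in KO blank 1 and 3. It was 328 CPM in WT blank 2, against 93.2 and 122 CPM in WT blank 1 and 3. Platelet markers, 9 genes summed, had 74.1 to 131 CPM in KO R300 against 69.3 to 109 CPM in KO blank, and 60.0 to 109 CPM in WT R300 against 56.5 to 94.8 CPM in WT blank. Most of these sums was Pf4, with means of 95.5 CPM in KO R300, 80.2 in KO blank, 74.8 in WT R300 and 66.3 in WT blank. Of the 7 platelet markers tested, the log2 change was above 0 for 3 in KO and 4 in WT. Gp6 and Gp9 were at 0 in 5 and 1 of the 12 libraries. Mitochondrially encoded transcripts had a log2 change below 0 for 11 of 13 genes in KO (median -0.07) and 13 of 13 in WT (median -0.25). They summed to 22130 to 29797 CPM in KO R300 against 21267 to 30815 CPM in KO blank. In WT R300 they summed to 21536 to 27457 CPM, against 20208 to 37456 CPM in WT blank. WT blank 2 held the 37456 CPM, against 20208 and 27322 CPM in WT blank 1 and 3. The 10 mesothelial and fibroblast markers all had a log2 change above 0 in both genotypes (0.28 to 1.07 in KO, 0.94 to 1.41 in WT). Eosinophil and mast cell markers had a log2 change above 0 for 7 of the 8 genes tested in each genotype (median 0.66 in KO, 0.94 in WT). Unadjusted p was under 0.05 for 2 of these 8 in KO and 5 in WT, against 8.78% of all genes in KO and 8.72% in WT. All 10 genes of that list summed to 38.9 to 84.9 CPM in KO R300 against 28.8 to 67.5 CPM in KO blank, and to 38.8 to 46.2 CPM in WT R300 against 15.9 to 46.1 CPM in WT blank, with Epx and Prg2 at 0 in 4 and 7 of the 12 libraries. The log2 change was above 0 for 7 of 11 macrophage markers and below 0 for 4 in each genotype (median 0.22 in KO, 0.08 in WT). The sum without Lyz2, given above by group, was higher in every R300 library than in every blank library of its genotype. Most of that rise was Cd14, at 2761 ± 1056 CPM in KO R300 against 866 ± 381 CPM in KO blank. In WT R300 Cd14 was at 2252 ± 671 CPM, against 904 ± 472 CPM in WT blank (SD, n = 3). The log2 change was above 0 for 3 of 8 T and NK cell markers in each genotype, and for 3 of 7 neutrophil markers in KO and 1 of 7 in WT. By edgeR's quasi-likelihood test, unadjusted p was under 0.05 for 4 of 11 macrophage markers in each genotype. It was under 0.05 for 0 of 10 B cell markers in KO and 4 in WT, and for 0 of 10 mesothelial and fibroblast markers in KO and 1 in WT. Among T and NK cell, platelet and neutrophil markers and mitochondrially encoded transcripts, 0 genes reached this in either genotype. No gene of these lists passed the test in the fit without a batch. With Xist status as a batch, Cd14 passed in WT (log2 1.31, adjusted p = 0.0277 by edgeR's quasi-likelihood test). Calls of the other markers in that fit are not given here. The part of other cells in the Hsph1 and Hspa8 values was not tested.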

How the data were processed

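Transcripts of peritoneal macrophages were measured by RNA sequencing in 12 libraries. Per the labels' protocols, mRNA was taken from Trizol extracts with oligo(dT) and made into libraries with NEBNext Ultra reagents, which keep no strand. The authors deposited raw counts, 1 row per gene symbol (35050 rows). Per the submitters' processing notes, the tools were DESeq2 1.42.0, featureCounts 2.0.3, fastp 0.23.4, FastQC 0.12.1 and HISAT2 2, on mm10. The treatment of reads that fit several genes is not given in the sources used here. The 102 rows lacking a symbol (0.0232% to 0.0328% of counts) entered neither totals nor tests.

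These counts were tested in R 4.3.3 by edgeR's quasi-likelihood test (version 4.0.16, robust, TMM, filterByExpr by group), with 4 group means fitted on all 12 libraries. A gene passed at p under 0.05 after Benjamini-Hochberg adjustment over the 16546 genes tested. The scripts were tested on simulated data. Log2 CPM used a prior count of 2. SDs are over 3 libraries and intervals are 95% intervals of the fit. The smallest exact permutation p that 3 libraries against 3 allow is 0.1, two-sided. The design text calls the samples biological replicates.

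The members, the gene lists and the tests were chosen with earlier results of these data known. The rule for named genes takes the 10 members, the chaperone list genes called, or else the one of lowest p in each R300 comparison, the 3 nearest profiles of Hsph1, Hspa1a and Hspa1b, Ern1 and Xist. Hsf1, and the genes called only with Xist status as a batch (Dnaja1, Hspa4l), were added after their values were seen. Likeness is the root mean square difference of centred log2 CPM. Levels per kb use the longest protein-coding transcript of the GENCODE annotation of GRCm38 (mm10), the source of all positions of genes; Biopython 1.88 aligned coding sequences.

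Alternatives were DESeq2 1.42.0, other scalings (relative log expression, totals), no filter, a fit on the compared groups alone, the replicate number as a block, Xist status as a batch, the 8 libraries with Xist alone, 1 library per near-alike pair (KO R300 1 and WT R300 1 kept), and 1 library left out at a time. The near-alike setting combined with the batch, and leaving out a library outside the comparison, were chosen after seeing the data. Deviations of KO blank and WT blank libraries of the same number correlated at 0.514, 0.535 and 0.558, so by this criterion from the data the numbers pair them; they pair no other groups.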

Additional observations from a re-analysis of the deposited data

How the results depend on the processing

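No called value changed sign under any alternative, and of 1090 results under alternatives 86 changed sign, all of them uncalled; the cause was not tested. In the edgeR fit reported, 1 of 10 members was called with R300 in each genotype. The count was 0 in KO and 0 in WT with only the groups compared and with 1 library per near-alike pair, and 2 in KO with Xist status as a batch, without the 4 libraries lacking Xist, and with DESeq2. With each library left out in turn it ran from 0 to 2 in KO and from 0 to 1 in WT. Of all genes, 138 were called in KO and 103 in WT, against 34 in KO and 28 in WT with 1 library per near-alike pair, 43 in KO and 41 in WT with only the groups compared, 290 in KO and 242 in WT without the 4 libraries lacking Xist, 450 in KO and 347 in WT with Xist status as a batch, and 411 in KO and 343 in WT with DESeq2. With 1 library left out these counts ran from 45 to 171 in KO and from 32 to 135 in WT. Of the calls in KO, 83.3% were higher with TMM and 72.9% with library totals only. The interaction has no value with only the groups compared.

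With library totals as the only scaling, the log2 values that changed sign were, for R300 over blank in KO, -0.030 for Hspa4 and, for R300 over blank in WT, -0.030 for Dnajb1 and -0.024 for Hspe1 and, for the R300 response of KO minus that of WT, -0.00505 for Hsph1. Without the 4 libraries lacking Xist, the log2 values that changed sign were, for R300 over blank in KO, -0.016 for Hspa4 and, for R300 over blank in WT, -0.048 for Dnajb1 and, for KO over WT in R300 cells, -0.015 for Hsph1 and, for KO over WT in blank cells, 0.080 for Hspa8 and -0.00355 for Hspe1 and, for the R300 response of KO minus that of WT, -0.049 for Hsph1. With 1 library per near-alike pair, the log2 values that changed sign were, for R300 over blank in KO, -0.21 for Hspb1 and, for R300 over blank in WT, -0.00981 for Dnajb1 and, for KO over WT in R300 cells, 0.021 for Hsp90aa1 and, for the R300 response of KO minus that of WT, -0.00342 for Hsph1. With 1 library per near-alike pair and Xist status as a batch, the log2 values that changed sign were, for R300 over blank in KO, -0.058 for Hspb1 and, for KO over WT in R300 cells, -0.00459 for Hsph1, 0.024 for Hsp90aa1 and 0.15 for Hspb1 and, for the R300 response of KO minus that of WT, -0.013 for Hsph1. With Xist status as a batch, the log2 values that changed sign were, for KO over WT in R300 cells, 0.000870 for Hsp90aa1. With relative log expression factors, the log2 values that changed sign were, for KO over WT in R300 cells, 7.99e-05 for Hsp90aa1 and, for KO over WT in blank cells, -6.61e-05 for Hsph1. With DESeq2, the log2 values that changed sign were, for KO over WT in R300 cells, 0.000456 for Hsp90aa1. Without a filter on low counts, the log2 values that changed sign were, for the R300 response of KO minus that of WT, -0.010 for Hsph1.

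Leaving out 1 library at a time, the log2 values of some members crossed 0, and their lowest and highest values follow. For R300 over blank in KO, they were -0.074 to 0.45 for Hspa1a, -0.042 to 0.59 for Hspa1b, -0.082 to 0.10 for Hspa4, -0.019 to 0.36 for Hsp90aa1, -0.23 to 0.31 for Hspb1 and -0.10 to 0.021 for Hspd1. For R300 over blank in WT, they were -0.29 to 0.18 for Hspa1a, -0.41 to 0.17 for Hspa1b, -0.064 to 0.13 for Dnajb1 and -0.038 to 0.076 for Hspe1. For KO over WT in R300 cells, they were -0.14 to 0.35 for Hspa1a, -0.066 to 0.49 for Hspa1b, -0.051 to 0.093 for Hsph1, -0.027 to 0.090 for Hspa4, -0.072 to 0.045 for Hsp90aa1, -0.64 to 0.28 for Hspb1, -0.12 to 0.011 for Hspd1 and -0.093 to 0.021 for Hspe1. For KO over WT in blank cells, they were -0.083 to 0.049 for Hspa8, -0.40 to 0.11 for Hspa1a, -0.53 to 0.096 for Hspa1b, -0.064 to 0.11 for Hsph1, -0.096 to 0.087 for Dnajb1, -0.082 to 0.29 for Hsp90aa1 and -0.00356 to 0.13 for Hspe1. For the R300 response of KO minus that of WT, they were -0.00963 to 0.51 for Hspa1a, -0.094 to 0.087 for Hsph1 and -0.29 to 0.081 for Hsp90aa1.

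The replicate block changed no member's call: 1 member was called with R300 in each genotype, Hsph1 with an adjusted p of 0.00824 in KO and 0.0115 in WT, and 141 genes were called in KO and 119 in WT. With the replicate block, the log2 values that changed sign were, for R300 over blank in WT, 0.025 for Hspa1a and 0.024 for Hspa1b and, for KO over WT in R300 cells, -0.00225 for Hspa1a. The block entered for all 12 libraries, and no fit paired the blank libraries alone. What that pairing does to KO blank against WT blank was therefore not tested. Outside the blank libraries the samples share only a number: same-numbered deviations of R300 and blank correlated at 0.346, 0.000584 and 0.608 in KO and at 0.385, 0.0665 and -0.468 in WT, and those of KO R300 and WT R300 at 0.316, -0.599 and -0.510.

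Hspb1 had 102 to 660 counts per library, and its coefficient of variation between libraries of a group ran from 19.8% to 63.9%.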

Other observations

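Rows of processed pseudogenes carry names of the mitochondrial pair. The 3 pseudogene rows named for Hspd1 held 244, 109 and 224 counts in KO R300 libraries 1 to 3, 103, 129 and 140 in KO blank, 118, 74 and 88 in WT R300, and 120, 117 and 91 in WT blank. These sums were 1.90% to 7.06% of the Hspd1 count of the same library. The highest shares were 7.06% in KO R300 1 and 5.90% in KO R300 3, while KO R300 2, the near-alike partner of KO R300 1, had 2.81%. For Hspe1, 6 such rows summed to 18 to 62 counts, 2.32% to 4.57% of the Hspe1 count. Reads of a gene and of its processed copies can be exchanged in counting, and no test was made on these rows.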
